A study of Mus musculus with 6 samples.

Results

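The kinases and adapters that act first when a T-cell receptor is engaged were followed in thymocytes from 3 mice lacking Klf4 in T cells (Th_KO) and 3 control mice (Th_WT). The members were chosen by name, as every probe whose annotated gene is Lck, Fyn, Zap70, Lat, Lcp2, Grap2, Plcg1, Vav1 or Themis. Of the 9 genes, 8 had a probe, of 16593 genes named on the array, and these gave 13 of its 25697 probes, and 12 of these 13 passed the filter on dim probes. Lck, the gene named first in most accounts of this pathway, had no probe annotated to it in the table used and was not analysed here.

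The Th_KO mice were Klf4fl/fl-CD4-Cre+, and the Th_WT mice were Klf4fl/fl-CD4-Cre-, so both groups carried floxed Klf4 alleles and only the Th_KO mice carried Cre. All 6 mice had a C57/BL6 background and an age of 8 to 10 weeks, and each mouse gave 1 Illumina MouseRef-8 v2 bead array. The cells were freshly isolated DP+SP4 thymocytes (CD4+CD8+ double-positive and CD4 single-positive cells), enriched by CD4 to a purity above 94%. The Cd4 promoter that drives Cre becomes active at about the double-positive stage, so a cell's time since deletion varies, and the arrays report a mixture of stages.

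When a peptide-bearing MHC molecule engages the receptor, the Src-family kinases LCK and FYN phosphorylate the CD3 and zeta chains, and the kinase ZAP-70 docks there and is activated. ZAP-70 phosphorylates the membrane scaffold LAT and the adapter SLP-76 (the product of Lcp2), which the bridging adapter GADS (Grap2) holds together. That complex recruits phospholipase C gamma 1 (Plcg1), which releases calcium and activates RAS and protein kinase C, and VAV1, which promotes remodelling of the actin cytoskeleton. THEMIS is a T-lineage protein abundant in double-positive thymocytes and needed for normal positive selection, the step at which thymocytes with a useful receptor survive.

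Values are scores in z units. The deposited values of each array average 0 over all probes and have unit SD. A deposited score thus tells how many SDs of that array a probe lies above or below the array's mean. The scores printed here were quantile-normalized unless called deposited, so they give that number only approximately. Whether intensities or their logarithms were standardised is not known here, so no fold change is given. A difference is Th_KO minus Th_WT, with the moderated standard error (SE), the 95% interval and the p-value from limma, adjusted after Benjamini and Hochberg across all 15418 tested probes, and called at an adjusted p under 0.05. With 3 mice a group, an exact permutation test of 1 probe cannot give a two-sided p below 0.1. In RNA of mixed cells, fewer cells of a type and less RNA per cell cannot be told apart.

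Klf4 checked the labels. On probe ILMN_1241903 it read -0.555, -0.758 and -0.696 in Th_KO mice 1 to 3, against 0.0498, 0.109 and -0.145 in Th_WT mice 1 to 3 (difference -0.674, SE 0.0679, limma adjusted p = 0.00265). Probe ILMN_1221264 was also called lower (difference -0.376, limma adjusted p = 0.046), a call lost in 5 of the 6 fits that left out 1 mouse, while ILMN_2999439 differed by 0.0367. That last probe was the brightest for Klf4, at a mean percentile of 75.4, against 47.5 for ILMN_1241903 and 42.9 for ILMN_1221264. Where these probes lie relative to the deleted part is not known here. Among the arrays, that of Th_WT 3 stood apart, with Xist probes at 2.12 and 1.37 against -0.57 to -0.401 in the other 5 mice, and Eif2s3y at -0.834 against 1.53 to 1.89. Its upper quartile of deposited scores was also the highest, at 0.517 against 0.436 to 0.477. T-lineage markers bear on the lineage of the cells and not on their stage. Of these, 6 of 6 on the array passed the filter, with a mean score of 3.64 to 3.72 in Th_KO mice and 3.64 to 3.79 in Th_WT mice.

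No member of the proximal pathway passed the test between the genotypes. Of the 12 tested probes 0 were called by limma, where 0.013% of all probes were called, and 2 had an unadjusted p under 0.05, Themis and 1 of 2 Lcp2 probes, where 8.82% of all probes did. The probes called over the whole array were 2, both of Klf4 itself, so no other gene was called either. The difference was positive on 5 probes and negative on 7, and its median was -0.0241 z units, beside -0.000353 over all probes tested. The median size of the difference was 0.0627 in the members and 0.043 over all probes. The 3 Th_KO values lay entirely on one side of the 3 Th_WT values on 4 of the 12 probes, 3 lower (Themis, Vav1 and Lcp2 ILMN_1259461) and 1 higher (Fyn ILMN_2912082), where the groups did not overlap on 14.1% of all probes (7.45% lower and 6.62% higher in Th_KO mice). These counts are after quantile normalization, and on the deposited scores the Vav1 groups overlapped. These 12 probes come from 8 genes, so probes of 1 gene are not independent.

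**Figure D1:**
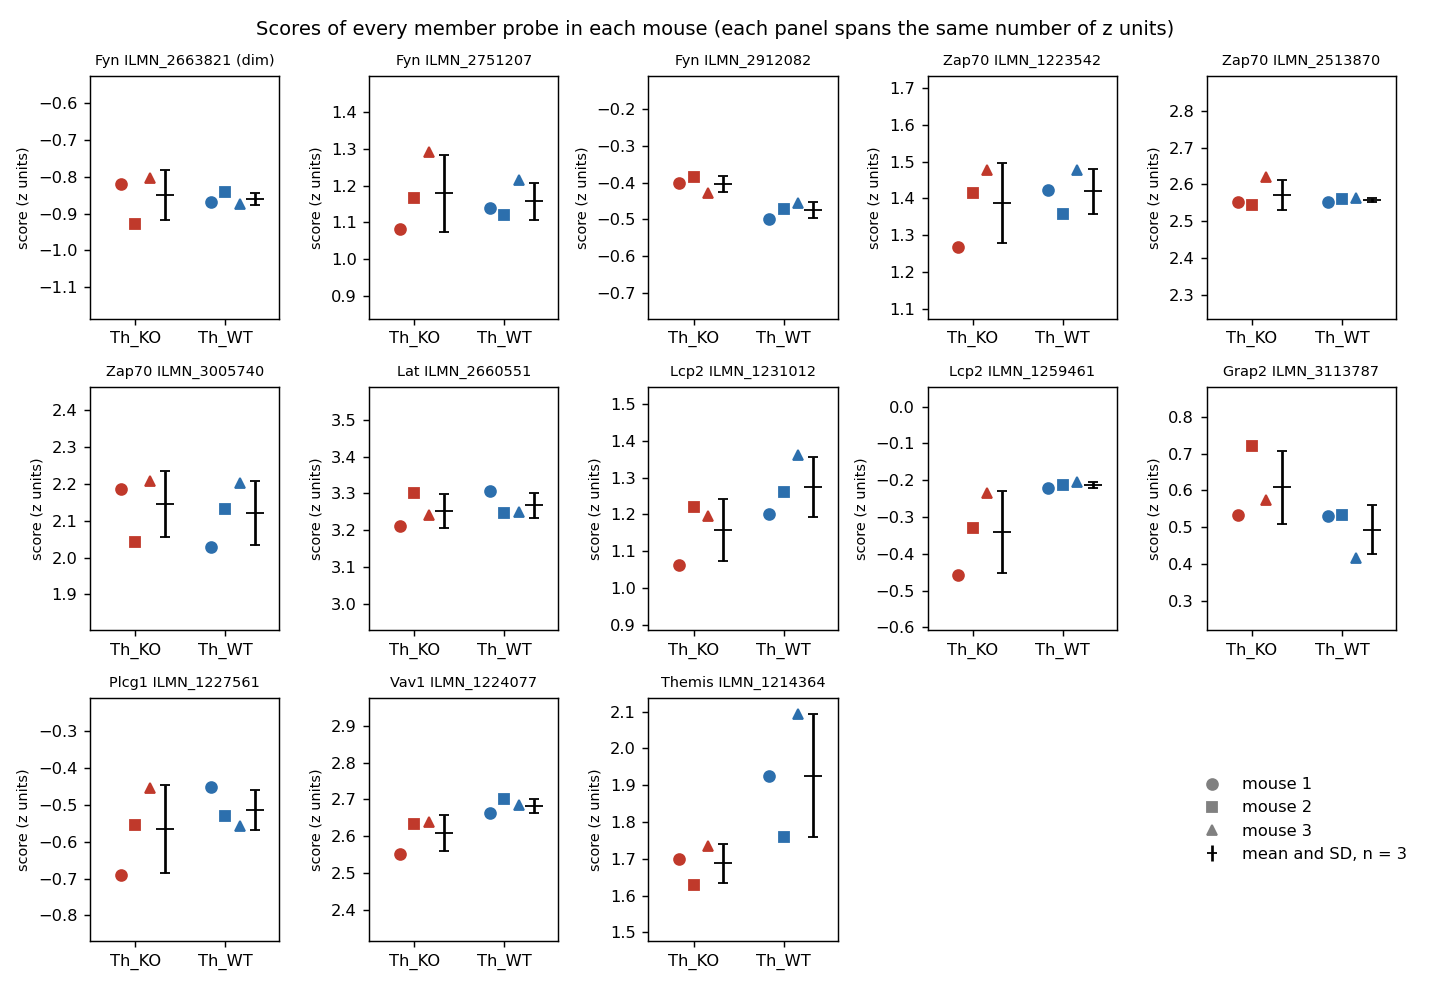
Scores of all 13 member probes, in z units after quantile normalization (vertical axes, each spanning the same number of z units), in 3 Th_KO mice (red, left) and 3 Th_WT mice (blue, right), with the mean and SD of each group in black. Symbols give the mouse number within its own genotype, and only Themis, Vav1, Lcp2 ILMN_1259461 and Fyn ILMN_2912082 show groups that do not overlap among the tested probes.

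The DNA around the start of these 4 genes is shown because KLF4 and its relatives are known to bind CACCC boxes, and the genes were picked after their values were seen. Each window holds 250 bases before and 50 bases after the annotated start, from RefSeq on mouse build GRCm38.p6, 5′ to 3′ on the gene's strand. All 4 lie on the plus strand, Themis at chr10:28668110-28668409, Vav1 at chr17:57278850-57279149, Lcp2 at chr11:34046678-34046977 and Fyn at chr10:39369549-39369848. Capitals mark CACCC or its reverse complement GGGTG, and adjoining matches run together.
Themis: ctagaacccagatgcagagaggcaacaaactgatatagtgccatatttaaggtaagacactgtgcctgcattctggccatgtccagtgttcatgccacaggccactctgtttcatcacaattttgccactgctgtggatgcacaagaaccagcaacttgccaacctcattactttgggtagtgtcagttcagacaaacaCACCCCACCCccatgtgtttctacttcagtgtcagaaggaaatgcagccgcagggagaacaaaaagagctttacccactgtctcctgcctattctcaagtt
Vav1: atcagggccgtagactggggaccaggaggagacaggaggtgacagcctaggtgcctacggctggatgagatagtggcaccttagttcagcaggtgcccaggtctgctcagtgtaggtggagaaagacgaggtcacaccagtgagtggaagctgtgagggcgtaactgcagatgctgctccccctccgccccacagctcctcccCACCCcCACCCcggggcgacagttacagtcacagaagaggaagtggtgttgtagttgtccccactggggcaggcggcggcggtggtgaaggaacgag
Lcp2: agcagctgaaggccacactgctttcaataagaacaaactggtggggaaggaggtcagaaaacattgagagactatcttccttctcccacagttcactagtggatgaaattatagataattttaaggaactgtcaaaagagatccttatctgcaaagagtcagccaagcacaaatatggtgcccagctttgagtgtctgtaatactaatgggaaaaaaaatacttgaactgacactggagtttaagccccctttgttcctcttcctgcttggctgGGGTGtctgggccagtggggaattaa
Fyn: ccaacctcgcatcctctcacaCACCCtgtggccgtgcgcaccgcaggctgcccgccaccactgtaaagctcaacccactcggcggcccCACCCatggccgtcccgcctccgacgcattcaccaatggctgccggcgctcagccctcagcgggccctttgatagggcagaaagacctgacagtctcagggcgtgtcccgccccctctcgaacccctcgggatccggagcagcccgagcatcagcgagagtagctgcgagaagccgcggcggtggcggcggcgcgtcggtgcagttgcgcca
In Themis, 2 adjoining boxes begin 51 and 46 bases before the start, and in Vav1 2 boxes begin 47 and 41 bases before it. Fyn has 2 boxes, 229 and 162 bases before the start, and Lcp2 has 1 match after its start. All 9 genes had at least 1 window in the table, 13 windows in all, and 12 of the 13 held a match (92.3%), as did 57.5% of the 32851 windows of all genes. The window of Grap2 was the exception among the members. Overlapping windows of 1 gene share bases (the 2 of Themis hold the same boxes), and a match of 5 letters is a description, not a binding site.

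Themis had the difference largest in size among the members. It read 1.7, 1.63 and 1.73 in Th_KO mice 1 to 3, against 1.92, 1.76 and 2.09 in Th_WT mice 1 to 3. All 3 Th_KO values were below all 3 Th_WT values, but Th_WT 2 was only 0.0261 above the highest Th_KO mouse, and the Th_WT mice were spread more widely. The means were 1.69 ± 0.0535 in Th_KO and 1.93 ± 0.167 in Th_WT mice (SD, n = 3 each). They differed by -0.239 (SE 0.0715, 95% interval -0.393 to -0.0847, limma unadjusted p = 0.00521, adjusted p = 0.397). A difference of at least this size was found in 0.649% of all probes tested. Without Th_WT 3, the mouse with the highest Themis value, the difference was -0.155 (adjusted p = 0.506), and without Th_WT 2 it was -0.322 (adjusted p = 0.29).

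The other markers of double-positive thymocytes also had a lower mean score in Th_KO mice, described here with no test. Over the 10 of them on the array, Themis left out, the mean score was 1.867, 1.91 and 1.905 in Th_KO mice 1 to 3. It was 1.915, 1.945 and 2.019 in Th_WT mice 1 to 3. These groups did not overlap either, but Th_KO 2 and Th_WT 1 nearly touched, and Th_WT 3 was again highest. Of the 10, 9 passed the filter and Cd8a was dim. Their summed score was 18.67 to 19.1 in Th_KO mice and 19.15 to 20.19 in Th_WT mice. The part of the cell mixture in the Themis difference was not tested. The 9 markers of CD4 single-positive cells averaged 0.673 to 0.736 in Th_KO mice and 0.689 to 0.699 in Th_WT mice, ranges that overlapped. The 4 double-negative markers on the array also had a lower group mean in Th_KO mice (0.127 against 0.2). Their ranges, 0.0791 to 0.171 in Th_KO and 0.157 to 0.235 in Th_WT mice, overlapped.

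Among the adapters, Lcp2 was lower in Th_KO mice on both of its probes, without passing the test. On ILMN_1231012 it read 1.06, 1.22 and 1.19 in Th_KO mice, against 1.2, 1.26 and 1.36 in Th_WT mice, and the groups overlapped by Th_KO 2, which lay above Th_WT 1. The difference was -0.116 (SE 0.0605, 95% interval -0.246 to 0.015, limma adjusted p = 0.616). On ILMN_1259461 it read -0.456, -0.329 and -0.235 in Th_KO mice, against -0.221, -0.213 and -0.205 in Th_WT mice, a difference of -0.127 (SE 0.0558, 95% interval -0.247 to -0.00662, limma unadjusted p = 0.0402, adjusted p = 0.543). The Th_WT mice were within 0.016 of each other on that probe and the Th_KO mice spread over 0.222. Th_KO 1 was the lowest array on both probes. Without it the differences were -0.0672 and -0.0687.

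Grap2, whose product links LAT to SLP-76, had a difference of the opposite sign. It read 0.533, 0.72 and 0.574 in Th_KO mice, against 0.53, 0.535 and 0.417 in Th_WT mice, with Th_KO 2 highest and Th_WT 3 lowest. The groups overlapped by 1 Th_KO value, that of mouse 1, which lay between Th_WT 1 and Th_WT 2. The difference was 0.115 (SE 0.0629, 95% interval -0.0204 to 0.251, limma adjusted p = 0.639), and 0.0594 without Th_KO 2 or 0.0768 without Th_WT 3.

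Lat itself, the scaffold on which these adapters assemble, lay near the top of every array, at a mean percentile of 99.2. It read 3.21, 3.3 and 3.24 in Th_KO mice, against 3.31, 3.25 and 3.25 in Th_WT mice, so the groups were interleaved. The difference was -0.0165 (95% interval -0.106 to 0.073, limma adjusted p = 0.944), and its sign turned with the deposited scores, at 0.0419.

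The kinases gave intervals on both sides of 0. Zap70 had 3 tested probes, with differences of -0.0317 (95% interval -0.164 to 0.1) on ILMN_1223542, 0.0134 (-0.0795 to 0.106) on ILMN_2513870 and 0.0248 (-0.102 to 0.151) on ILMN_3005740. The most even of them, ILMN_2513870, read 2.55, 2.54 and 2.62 in Th_KO mice, against 2.55, 2.56 and 2.56 in Th_WT mice, where all 6 arrays lay within 0.075 of each other. All 3 probes overlapped between the groups, and the signs turned for all 3 when single mice were left out.

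Fyn had 3 probes, which did not read alike. ILMN_2751207 read 1.08, 1.16 and 1.29 in Th_KO mice, against 1.14, 1.12 and 1.21 in Th_WT mice, with the Th_WT values inside the range of the Th_KO values (difference 0.0216, 95% interval -0.109 to 0.152, limma adjusted p = 0.951). ILMN_2912082 read -0.402, -0.384 and -0.427 in Th_KO mice, against -0.499, -0.471 and -0.457 in Th_WT mice. There each Th_KO value was above each Th_WT value, by a gap of 0.0293, and the difference was 0.0715 (SE 0.0403, 95% interval -0.0154 to 0.158, limma adjusted p = 0.644). The remaining probe, ILMN_2663821, was dim, at a mean percentile of 3.08, and differed by 0.0107 in a fit on all probes.

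Of the enzymes and exchange factors downstream of LAT, Vav1 was lower in each Th_KO mouse than in any Th_WT mouse after quantile normalization only. On the deposited scores its groups overlapped, with Th_WT 3 at 2.625, below Th_KO 2 at 2.66 and Th_KO 3 at 2.633. After quantile normalization Vav1 read 2.55, 2.63 and 2.64 in Th_KO mice, against 2.66, 2.7 and 2.68 in Th_WT mice. The difference was -0.0753 (SE 0.0439, 95% interval -0.17 to 0.0193, limma adjusted p = 0.655). The gap between the nearest mice of the groups, 0.0248, was smaller than the range within the Th_WT mice, 0.038. Plcg1 read -0.691, -0.554 and -0.453 in Th_KO mice, against -0.452, -0.53 and -0.556 in Th_WT mice. Its groups overlapped, with Th_KO 1 below the other 5 mice, and the difference of -0.0538 (95% interval -0.173 to 0.0658, limma adjusted p = 0.82) was 0.00877 without that mouse.

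**Figure D2:**
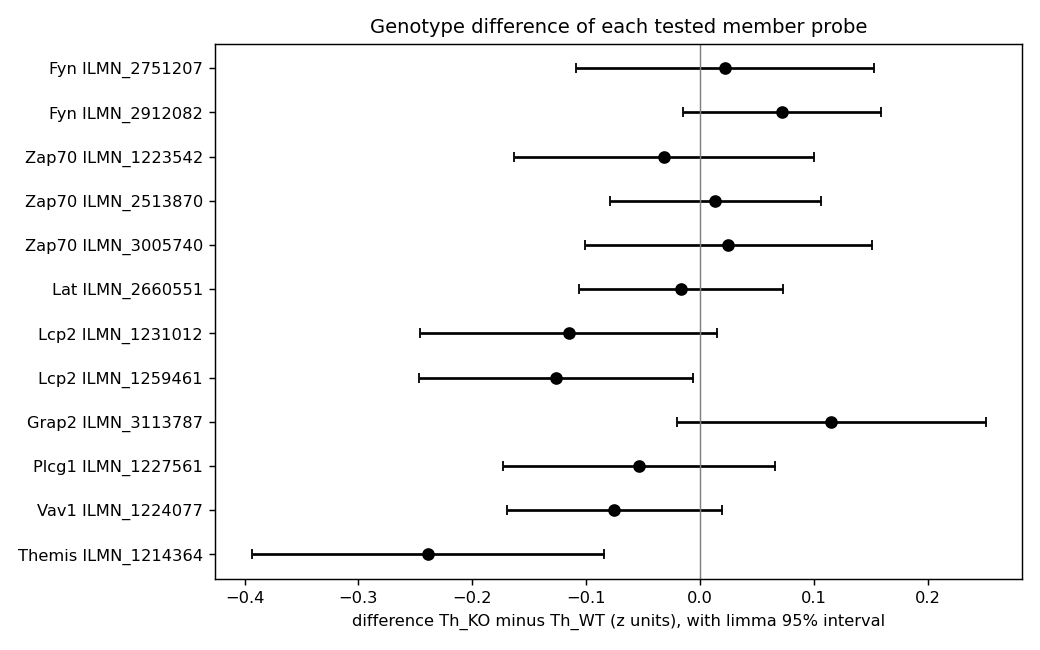
Difference Th_KO minus Th_WT of the 12 tested member probes in z units (horizontal axis), with the 95% interval from limma. The intervals of Themis and of Lcp2 ILMN_1259461 lie below 0 before adjustment over all probes, and the other 10 include 0.

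The intervals give the precision of each difference, per probe and before adjustment over all probes. The half-widths of these intervals ranged from 0.0869 to 0.154 z units over the 12 tested probes, with a median of 0.123. A call asked for more than an interval that leaves out 0, as Themis had such an interval and a limma adjusted p of 0.397. The test could therefore miss changes larger than these half-widths. On 10 of the 12 probes the interval lay within 0.25 z units of 0, and over all 12 the interval ends reached from -0.393 (Themis) to 0.251 (Grap2). A z unit need not stand for the same change in RNA at low and at high signal, so these bounds are not comparable between probes in amount of RNA.

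Much of the spread among the members lay within the Th_KO group. The array of Th_KO 1 was the lowest of the 6 on 7 of the 12 tested probes (58.3%), and it was lowest on 21.9% of all probes tested. The 7 probes belong to 6 genes, Fyn, Zap70, Lat, Lcp2, Plcg1 and Vav1, and Th_KO 1 was the highest array on 0 member probes, where it was highest on 20.7% of all probes. Th_KO 3, of the same genotype, was lowest on 0 and highest on 4 of the 12, beside 13.1% and 14.2% of all probes. The median deviation of the member probes from their 6-array means was -0.0905 in Th_KO 1, -0.00746 in Th_KO 2 and 0.0322 in Th_KO 3, against 0.00233 in Th_WT 1, -0.00908 in Th_WT 2 and 0.0424 in Th_WT 3. Without Th_KO 1 the median difference of the 12 probes was 0.00643. The counts of probes past the test stayed at 0 without Th_KO 1 and without Th_WT 3. The count with an unadjusted p under 0.05 was 2 without Th_KO 1 (7.52% of all probes) and 1 without Th_WT 3 (9.01% of all probes), and 5 and 4 probes had groups that did not overlap, where 23.2% and 26.7% of all probes did.

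**Figure D3:**
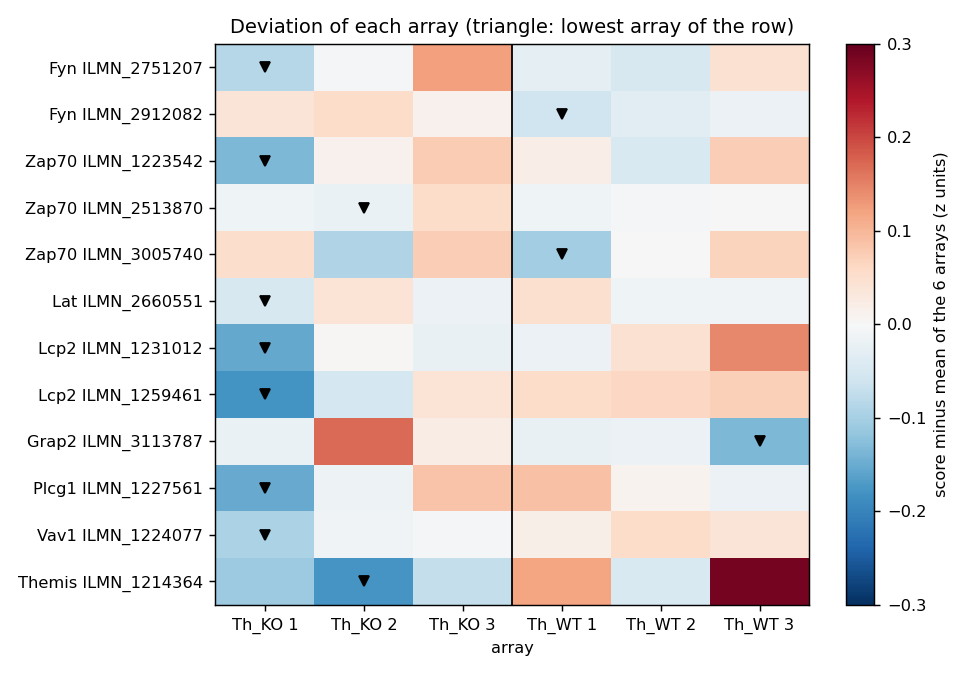
Score of each array (columns, Th_KO left of the line and Th_WT right) minus the mean of the 6 arrays, in z units (colour), for the 12 tested member probes (rows), with a triangle on the lowest array of each row. Th_KO 1 carries 7 of the 12 triangles, and Themis in Th_WT 3 is the strongest positive deviation.

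Relatives of the members showed no call. Of 15 paralogs, such as the kinase genes Src, Yes1 and Syk, the adapter genes Grb2 and Grap and the exchange factor genes Vav2 and Vav3, 13 were on the array and 10 were tested, with 1 probe per gene. Of these 10, 0 passed the test and 0 had an unadjusted p under 0.05, where 8.85% of all genes did, and the differences, 3 positive and 7 negative, had a median of -0.0153. The smallest p-values were those of Vav2 at -0.0638 (limma adjusted p = 0.728), Fgr, a Src-family kinase of myeloid cells, at -0.0375 (adjusted p = 0.811) and Vav3 at -0.0557 (adjusted p = 0.825). Their groups overlapped, as they did for all 10.

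Genes whose products bind the members or relay their signal likewise gave no call. Of 36 such partners, 32 were on the array and 28 were tested, and 0 passed over all probes. The difference was positive for 11 and negative for 17, and its median was -0.00585. Of the 28, 4 had an unadjusted p under 0.05, all with the lower mean in Th_KO mice, and 7 had groups that did not overlap, where 8.85% and 14.2% of all genes did. Nck1, an adapter that binds SLP-76 and links it to the actin cytoskeleton, read 0.83, 1.01 and 0.954 in Th_KO mice, against 1.18, 1.16 and 1.15 in Th_WT mice. Its groups stood apart, with the Th_WT mice within a narrow band, and the difference was -0.231 (SE 0.057, 95% interval -0.354 to -0.108, limma adjusted p = 0.325). Its other 2 probes were dim and differed by -0.0106 and 0.0033. Cdc42, a regulator of the actin cytoskeleton, read 1.2, 1.2 and 1.16 in Th_KO mice, against 1.3, 1.33 and 1.31 in Th_WT mice (difference -0.131, SE 0.0483, limma adjusted p = 0.466). Each Cdc42 value of a Th_KO mouse was below each of a Th_WT mouse, and 2 other probes of the gene were dim. Malt1, which relays protein kinase C signals to NF-kappaB, read 0.149, 0.226 and 0.239 in Th_KO mice, against 0.279, 0.371 and 0.442 in Th_WT mice (difference -0.159, SE 0.0585, limma adjusted p = 0.466).

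Genes whose scores followed the members most closely over the 6 arrays were found by the root mean square difference of centred scores, among 10391 other genes, for the 3 members whose brightest probe varied most. Nearest to Themis were Rbm44, Pcmtd2 and Tceal1, at 0.0309, 0.0357 and 0.0476 z units, each also highest in Th_WT 3. Nearest to Grap2 were Llph, Chchd10 and Serbp1, at 0.0199, 0.0238 and 0.0258, each lowest in Th_WT 3 and highest in Th_KO 2. Nearest to Lcp2 (ILMN_1231012) were Lsm14a, Map3k12 and Actn2, at 0.0138, 0.017 and 0.021, each lowest in Th_KO 1. With 6 arrays and this many genes, close matches are found for most patterns, so the names are a description only.

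**Figure D4:**
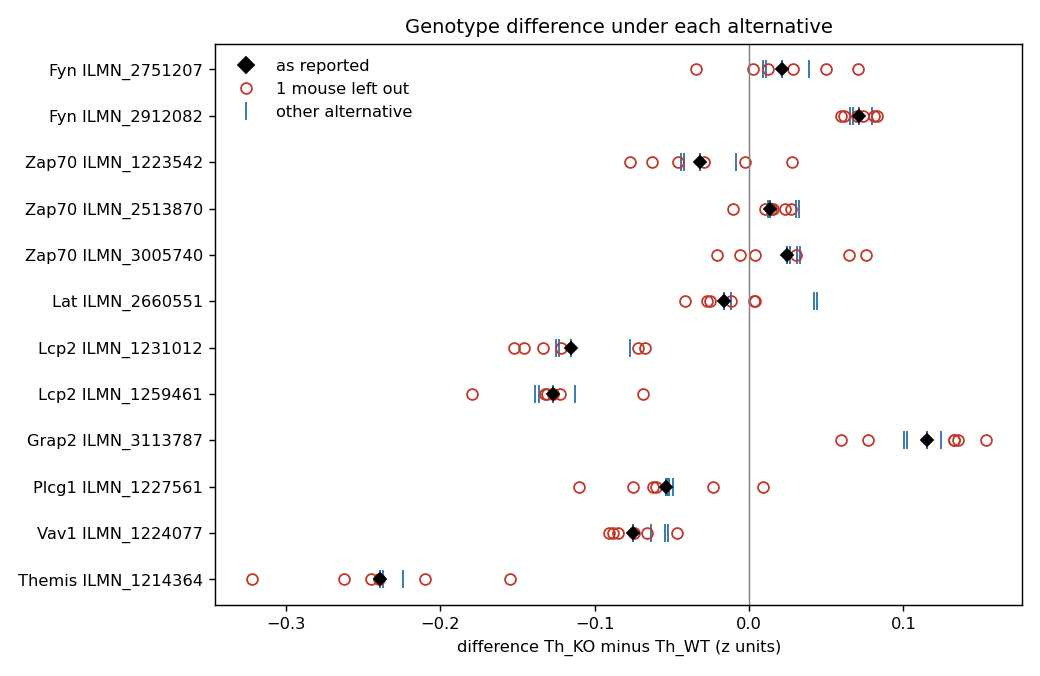
Difference Th_KO minus Th_WT in z units (horizontal axis) of the 12 tested member probes as reported (diamonds), with 1 mouse left out (open circles) and under the other alternatives (bars). Themis, both Lcp2 probes, Vav1, Grap2 and Fyn ILMN_2912082 stay on one side of 0 throughout, and the other 6 probes have values on both sides. Changes of the filter or variance model, the replicate block and the unequal-variance test leave each difference as reported, so those bars could not cross 0.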

How the data were processed

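Total RNA of 6 mice was copied into biotin-labelled cRNA and put on 1-colour bead arrays, per the labels' protocols. The values deposited by the authors are scores, and the values show that each array was standardised (mean 0, SD 1). The submitters' processing notes list GenomeStudio 2010.1 without saying what it did, and background correction and any log step are unstated in the sources used here. The quartiles of the arrays differed by up to 6.93% of the interquartile range, and the scores were quantile-normalized. Detection p-values were not used here, and 0 columns belonged to other samples.

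Gene names are those of GEO's annotation of the platform, brought up to date by gene identifier with RefSeq symbols of GRCm38.p6 (23978 probes with 1 symbol, 1719 with none and 0 with several; 23962 identifiers matched). Probes in the lowest 40% by mean (10279) were taken as dim and not tested, leaving 15418, and a dim probe was described from a fit on all probes. Genotypes were compared with limma 3.58.1 in R 4.3.3 (lmFit, eBayes with a trend, two-sided) over the whole table. In simulated data on 15418 probes, 92 of 100 changes of 0.5 z units and 100 of 100 of 1 z unit were recovered, with 12 false calls. Both sizes exceeded every member difference, many probes were changed at once, and the noise was independent between arrays. These counts therefore do not give the power for the members. The test was planned for the quantile-normalized deposited values and was run on them, in z units.

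All member probes were named, and up to 3 genes per list by smallest p, with 1 probe per gene (highest mean). The marker lists of B cells, myeloid and dendritic cells, NK and gamma-delta T cells, epithelium and erythroid cells had mean scores whose ranges in Th_KO and Th_WT mice overlapped, as did double-negative markers. The members and lists were chosen with earlier results of these data known. Replicates are separate mice, and their number limits the precision. Alternatives covered normalization, the filter, the variance model, array weights, the replicate block and each mouse left out.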

Additional observations from a re-analysis of the deposited data

How the results depend on the processing

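Under the 15 alternatives run, 0 of the 178 member differences passed the threshold and 10 turned sign. Changes of the filter or variance model, the replicate block and the unequal-variance test leave each difference as reported. Only a change of normalization, array weights or leaving out 1 mouse could turn a sign, so 10 of 178 is no measure of stability. Themis, both Lcp2 probes, Vav1, Grap2 and Fyn ILMN_2912082 kept their sign under every alternative in which they were tested, with Themis between -0.322 and -0.155 (adjusted p 0.196 to 0.838). On Themis, Vav1, Lcp2 ILMN_1259461 and Fyn ILMN_2912082 the quantile-normalized groups did not overlap. There, leaving out 1 mouse or weighting the arrays could not turn the sign either. Lat was 0.0419 on the deposited scores and 0.044 after median centring. Leaving out 1 mouse gave -0.0415 to 0.00393 for Lat, -0.0341 to 0.0703 for Fyn ILMN_2751207, -0.11 to 0.00877 for Plcg1, and -0.0772 to 0.0281, -0.0103 to 0.0272 and -0.021 to 0.076 for Zap70 ILMN_1223542, ILMN_2513870 and ILMN_3005740. The cause was not tested. The median difference of the member probes ranged from -0.0557 to 0.00643 without 1 mouse. Klf4 ILMN_2999439 ranged from -0.0524 to 0.14. The call on Klf4 ILMN_1221264 was lost without a trend (adjusted p = 0.141), with the unequal-variance test per probe (adjusted p = 0.838, also for ILMN_1241903) and without any 1 mouse other than Th_WT 3 (adjusted p up to 0.267).

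Over all probes, 0 were called higher and 2 lower, both of them Klf4 probes. The lower count was 0 with the stricter filter (under the 60th percentile left out, which removed Fyn ILMN_2912082, Plcg1 and both lower Klf4 probes), 1 without a trend, 0 with the unequal-variance test, and 1 to 4 without 1 mouse. The higher count was 1 with robust variance, 2 with the replicate block, and 0 to 1 without 1 mouse. Mice of the same number correlated in their deviations from the group means at -0.0338, 0.167 and 0.0346, so the numbers were not taken to pair the mice, and with the replicate block 0 member probes passed (Themis adjusted p = 0.196). The counts of unadjusted p-values and of groups that do not overlap without Th_KO 1 or Th_WT 3 were added after seeing the data. Quantile normalization, dim cut and probes tested were kept from all 6 arrays when a mouse was left out. Without detection p-values, signal over background is unknown.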
